A study of Macaca fascicularis with 1154 samples.

Results

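Cells of cultured cynomolgus monkey (Macaca fascicularis) embryos collected at days 9 and 11 were compared with cells collected at days 13 and 15. Cells were chosen by the day in their title, with a minimum of 100000 counts and of 2000 detected gene identifiers (IDs) per cell. This left 308 of the 310 cells of these days, out of 593 kept cells in the whole count table. The early period held 93 cells in 3 collections, a collection being all cells that share a day and a number after the letter B: 8 cells in E09 B1, 28 in E09 B2 and 57 in E11 B2. The later period held 215 cells in 5 collections: 28 in E13 B1, 66 in E13 B2, 87 in E15 B1, 22 in E15 B2 and 12 in E15 B3. The other 285 kept cells, of days 17, 19 and 20, entered no test and are given as levels.

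Each sample of the study was 1 cell, picked by hand from a trypsin-digested embryo and profiled with SMART-seq2, a full-length single-cell RNA protocol. All collections shared the species, the source (embryo) and this protocol. The labels gave no genotype, treatment, sex or cell type and did not say from what event the days were counted. The titles of E13 B1 carried the letters pe and dots, whose meaning is not given, and those of the other 7 collections did not. Of 1154 samples in the series, 554 had no column in the table and were not analysed here. Whether 2 collections are 2 embryos or 2 cultures is not in the labels. The p-values below are therefore about the spread among the 8 collections, part of which may be technical.

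Around the time at which a primate embryo would implant in the uterus, its lineages take on separate forms. The epiblast, which forms the body, becomes a flat disc roofed by the amnion, the hypoblast lines the yolk sac, and the trophoblast outside them divides into the cell layers of the early placenta. Gastrulation, in which epiblast cells move inward to form the germ layers, follows. No file gives a gene name for an ID and 0 of 28592 IDs matched the reference gene table, so markers of these lineages could not be looked up and the results are given by ID.

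Depth was higher in the early collections, without passing 0.05 after adjustment. The total count per cell ran from 107571 to 12976032 over the 308 cells, with a median of 2775164. Its mean log10 per collection was 6.66 ± 0.26 (SD, n = 3) in the early period and 6.15 ± 0.15 (n = 5) in the later one. The collections did not overlap, though E09 B2 at 6.368 and E15 B1 at 6.362 were close (exact permutation test, two-sided, p = 0.0357, which is the smallest that 3 against 5 can give, and 0.179 after adjustment over 5 measures of whole collections). Depth and period therefore cannot be told apart, and shares of cells were taken after every cell had been thinned at random to 100000 counts. At that depth the median number of IDs detected was 4233 ± 413 early and 3372 ± 1287 later (exact permutation p = 0.321, adjusted 0.402), with the lowest medians, 2542 and 2088, in E15 B2 and E15 B3. Cells of 1 collection correlated with each other at a mean r of 0.641 ± 0.050 early and 0.542 ± 0.074 later (exact permutation p = 0.0714, adjusted 0.179). With cells thinned to equal depth first, a choice made after seeing the data, these means were 0.467 and 0.413 (exact permutation p = 0.429). No 2 columns of the table held identical values.

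**Figure D1:**
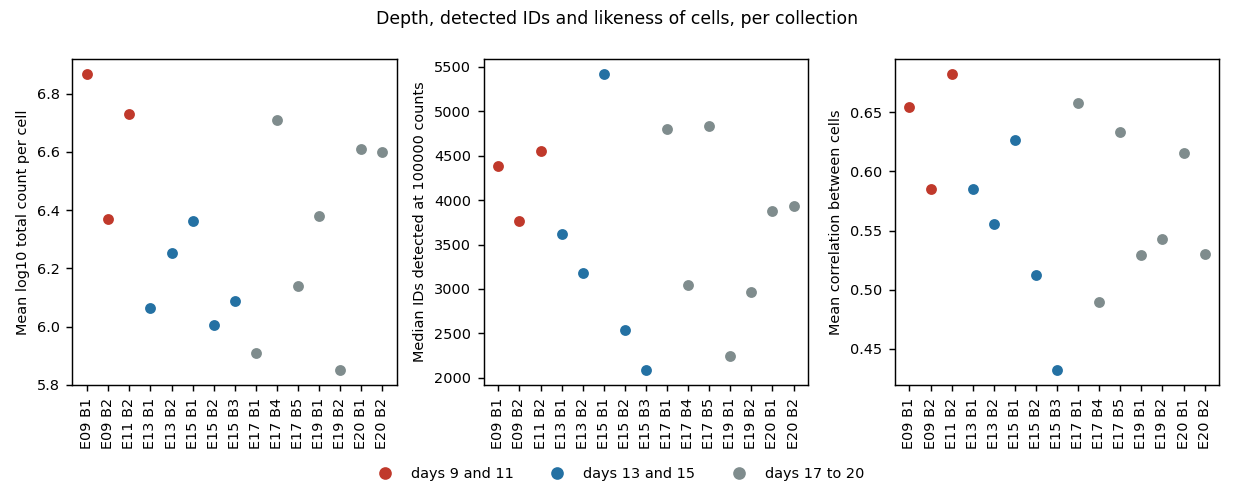
Mean log10 total count per cell (left), median number of IDs detected per cell at 100000 counts (middle) and mean correlation between cells of 1 collection on log2(CPM + 1) (right). Each point is 1 collection, coloured by period, and none of the axes starts at 0. The 3 early collections all lie above the 5 of days 13 and 15 in total count, while the other measures overlap.

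With counts summed per collection, few IDs differed between the periods, and most of those were lower at days 13 and 15. Of 13953 IDs tested, 21 (0.151%) had an adjusted p under 0.05 in edgeR's quasi-likelihood test with Benjamini-Hochberg adjustment. There were 18 lower IDs (0.129%) and 3 higher IDs (0.0215%) at days 13 and 15, and 1260 IDs (9.03%) had an unadjusted p under 0.05. In CPM, an ID's counts relative to all counts of its collection, the 2 periods did not overlap for any of the 21. The same was true, without regard to any test, of 422 tested IDs (3.02%) that were lower and 753 (5.40%) that were higher in every later collection. The median log2 fold change was -11.94 over the 18 lower IDs and 0.16 over all IDs tested. Over sums, fewer cells with an ID and less of it per cell cannot be told apart, so both are given separately below.

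ENSMFAG00000041983 was present in all early collections and near absent in all later ones. Its level was 854 CPM in E09 B1, 1099 in E09 B2 and 1160 in E11 B2. In the later collections it had 0 counts in E13 B1, 0 in E13 B2, 2 in E15 B1, 0 in E15 B2 and 2 in E15 B3. The pooled CPM was 140400 times higher early, with a 95% counting interval of 54830 to 515200 that covers counting error only. The fitted log2 fold change was -16.93 ± 1.13 (SE; edgeR adjusted p = 0.000207). Per cell, 8 of 8, 25 of 28 and 46 of 57 early cells were positive, meaning at least 1 count at 100000 counts. None of the 215 later cells was positive, which allows a share of up to 1.40% if cells are taken as independent. Taken by collection, 0 positive cells allows from 3.45% (E15 B1) to 25% (E15 B3). The call was lost when the day entered as a number instead of 2 periods (edgeR adjusted p = 0.224).

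ENSMFAG00000003156 was the other large decrease, and it was mainly an ID of day 9. It stood at 567 CPM in E09 B1, 175 in E09 B2 and 1.96 in E11 B2. A single count was found over the 5 later collections, in E13 B2. The pooled ratio of early to later CPM was 51840 with a counting interval of 9303 to 2047000, and the fitted log2 fold change was -16.56 ± 1.82 (edgeR adjusted p = 0.00454). Positive cells were 8 of 8 and 20 of 28 at day 9, 4 of 57 at day 11 and 0 of 215 later. The call was lost with the depth of the collections as a covariate (edgeR adjusted p = 0.0653), without E13 B2 (0.147), and without E15 B2 and E15 B3 (0.162).

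ENSMFAG00000000205 rose, from no count in any early collection. It reached 64.9 CPM in E13 B1, 62.4 in E13 B2, 28.8 in E15 B1, 286 in E15 B2 and 217 in E15 B3. Against 3 counts over the early period as a whole, the mean level was at least 22574-fold higher later (edgeR adjusted p = 0.00977). That fold allows for counting error only. Few cells carried the ID: 2 of 28, 10 of 66, 9 of 87, 10 of 22 and 2 of 12 later cells were positive, in the same order of collections. The early share of 0 of 93 cells allows up to 3.23% if cells are taken as independent, and by collection from 5.26% (E11 B2) to 37.5% (E09 B1). In E13 B1 and E15 B3 a single cell held 99.5% and 99.6% of its counts. The call was lost in limma on the mean log2(CPM + 1) over cells (adjusted p = 0.152), with the depth covariate (edgeR, 0.0653) and with the day as a number (edgeR, 0.257).

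ENSMFAG00000027911 did not pass the test although its collections did not overlap. Its levels were 0.789, 0.332 and 2.02 CPM in E09 B1, E09 B2 and E11 B2. They were 11.0, 326, 138, 75.3 and 171 CPM in E13 B1, E13 B2, E15 B1, E15 B2 and E15 B3. The log2 fold change was 6.69 ± 1.18 (edgeR adjusted p = 0.0797), and the adjusted p was below 0.05 in DESeq2 (2.87e-11), in limma over cells (0.0237), in edgeR without a filter on low counts (0.0324) and in edgeR on thinned cells (0.0353).

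**Figure D2:**
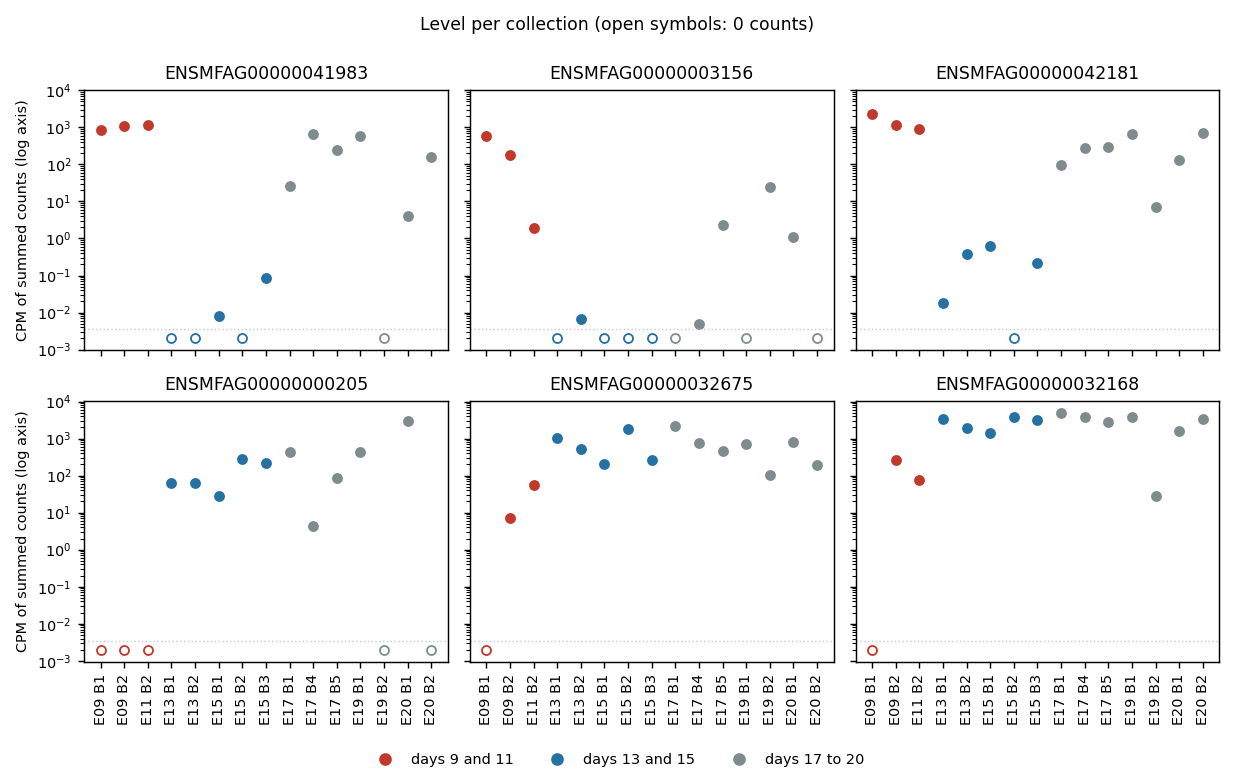
CPM of the summed counts of 6 IDs (log axis) in each of the 15 collections, coloured by period. Open symbols under the dotted line are collections with 0 counts. In the upper row the early collections lie above those of days 13 and 15, in the lower row below them. ENSMFAG00000041983 and ENSMFAG00000042181 are high again in most collections of days 17 to 20.

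The number of calls on sums depended on the fit. With depth as a covariate 2 IDs were called, both lower. With every cell thinned to 100000 counts before summing, 74 were called, 24 higher and 50 lower, and 14 of the 21 were among them. DESeq2 called 642, and there the split turned to 437 higher and 205 lower, with 20 of the 21 among them. limma on the mean over cells called 301, of which 261 were lower. Scaling by total counts alone gave 19 calls and moved the median log2 fold change of all IDs from 0.16 to 0.45. In the cells without ENSMFAG00000001837 at 100000 counts, 5 IDs were called, 3 higher and 2 lower. This left 1 cell in E09 B1, 8 in E09 B2 and 40 in E11 B2. Later it left 18 in E13 B1, 63 in E13 B2, 84 in E15 B1, 20 in E15 B2 and 12 in E15 B3. The loss of early cells and the absence of this ID therefore cannot be told apart. Leaving out 1 collection gave 9 calls (without E13 B1, without E13 B2 or without E15 B1), 10 (without E15 B2), 11 (without E09 B1) or 64 (without E11 B2, 35 higher and 29 lower), and leaving out both E15 B2 and E15 B3 gave 7.

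The share of positive cells differed for many more IDs. Of 10991 IDs positive in 5% to 95% of the 308 cells, 512 (4.66%) differed in limma with trend on the logit of the share (adjusted p under 0.05). Lower at days 13 and 15 were 394 (3.58%) and higher 118 (1.07%). An unadjusted p under 0.05 was reached by 2043 (18.6%). The collections of the periods did not overlap for 768 tested IDs (6.99%) that were lower and 270 (2.46%) that were higher, and for 272 of the 394 and 87 of the 118. Over the 394 lower IDs the median of the mean share fell from 54.3% of cells to 10.8%. Over the 118 higher IDs it rose from 4.41% to 38.4%, and over all IDs tested it was 29.0% early and 21.5% later. Of the 18 IDs lower on sums, 17 were tested here and 16 were also called, as were all 3 that were higher on sums.

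ENSMFAG00000042181 had the largest fall in share. It was positive in 8 of 8 cells of E09 B1, 27 of 28 of E09 B2 and 51 of 57 of E11 B2. At days 13 and 15 it was positive in 2 of 215 cells, 1 of 66 in E13 B2 and 1 of 87 in E15 B1. The mean share went from 95.3% ± 5.35 (SD, n = 3) to 0.533% ± 0.741 (n = 5), a difference of -94.8 percentage points (limma adjusted p = 4.69e-22). An exact permutation test over the collections gave p = 0.0357, the smallest possible. Without thinning, 93 of 93 early cells and 9 of 215 later cells had a count. Its sums were 2289, 1138 and 923 CPM early and at most 0.629 CPM later (edgeR adjusted p = 0.00339).

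ENSMFAG00000041983 had the next largest fall, from 90.0% ± 9.67 of cells to 0 of 215 (limma adjusted p = 6.12e-20, exact permutation p = 0.0357). The 2 IDs were found in the same early cells. Both were positive in 8 of 8 cells of E09 B1, 25 of 28 of E09 B2 and 44 of 57 of E11 B2, and neither was in 0, 1 and 4 cells. Each was in most early cells, so the overlap is given as a description.

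ENSMFAG00000032675 had the largest rise. Positive cells were 0 of 8 in E09 B1, 3 of 28 in E09 B2 and 15 of 57 in E11 B2. They were 28 of 28 in E13 B1, 56 of 66 in E13 B2, 70 of 87 in E15 B1, 22 of 22 in E15 B2 and 7 of 12 in E15 B3. Every later collection was above every early one, with means of 12.3% ± 13.2 and 84.7% ± 17.2 (limma adjusted p = 1.12e-08, exact permutation p = 0.0357). Without thinning, 50 of 93 early cells and 215 of 215 later cells had a count. On sums the same ID did not pass (log2 fold change 4.95 ± 1.84, edgeR adjusted p = 0.424).

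ENSMFAG00000032168 rose nearly as much. It was positive in 0 of 8, 11 of 28 and 18 of 57 early cells. It was positive in 28 of 28, 61 of 66, 82 of 87, 22 of 22 and 11 of 12 later cells, in the order given above. The means were 23.6% ± 20.8 and 95.7% ± 4.06 (limma adjusted p = 9.19e-08, exact permutation p = 0.0357), and its sums did not pass either (edgeR adjusted p = 0.473). Without thinning, 80 of 93 early cells and 215 of 215 later cells had a count. Most early cells thus had some of this ID, with 27 of 28 in E09 B2 and 53 of 57 in E11 B2, but 0 of 8 in E09 B1. In E11 B2 it was positive in 12 of the 51 cells with ENSMFAG00000042181 and in all 6 cells without it, and in 8 of the 46 cells with ENSMFAG00000041983 and 10 of the 11 without it. In E09 B2 it was positive in 10 of the 27 cells with ENSMFAG00000042181 and in the 1 cell without it. The rising ID was thus seen more often in the early cells that lacked a falling one, which is given as a description, since the cells of a collection are not replicates. ENSMFAG00000032675 and ENSMFAG00000032168 were positive together in 0 of 8 cells of E09 B1, 2 of 28 of E09 B2 and 10 of 57 of E11 B2. Later they were together in 28 of 28, 52 of 66, 67 of 87, 22 of 22 and 6 of 12 cells, and in the collections with all cells positive for both this number is fixed.

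**Figure D3:**
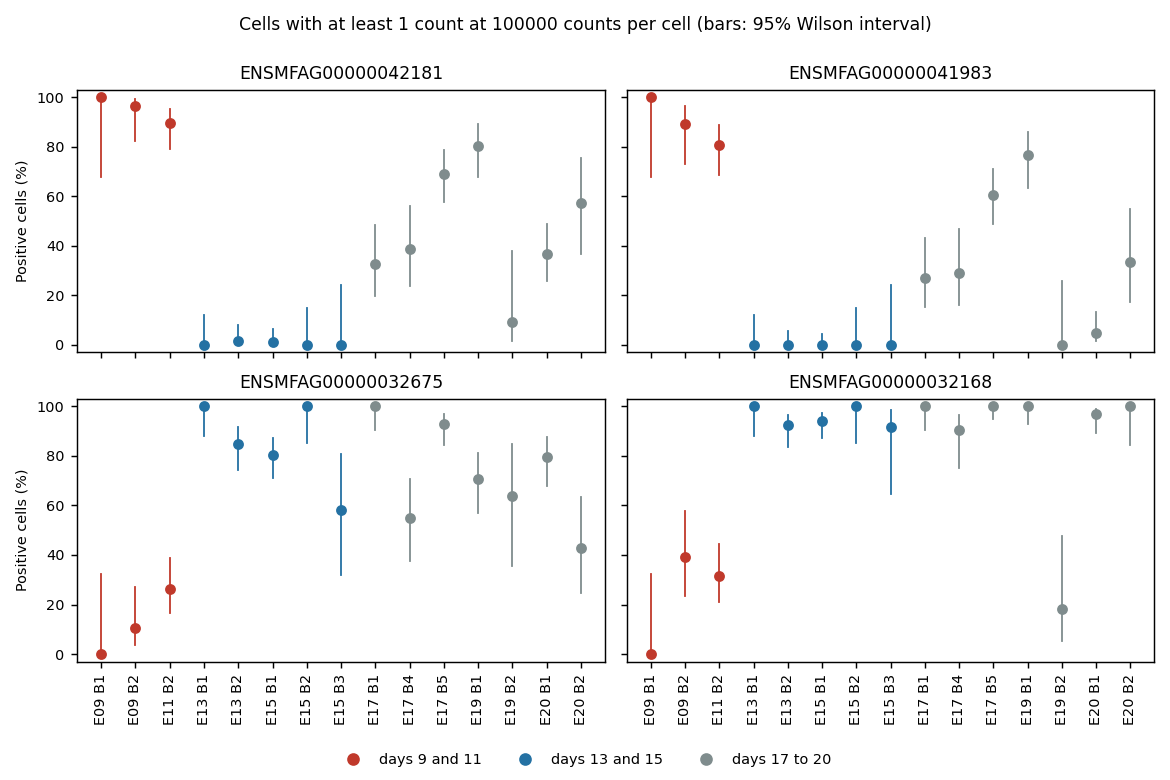
Percent of cells with at least 1 count after thinning to 100000 counts per cell, for 4 IDs in 15 collections coloured by period. Bars are 95% Wilson intervals, which cover counting error only. In the upper row early shares are 80% to 100% and those of days 13 and 15 at or near 0, and in the lower row every share of days 13 and 15 is above every early share.

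These 4 IDs kept their call under every alternative in which they were tested, 14 for ENSMFAG00000032168 and 15 for each of the other 3, with the largest limma adjusted p at 0.0138. ENSMFAG00000032168 was not tested without thinning, where its share over all cells was above the upper limit of 95%. The number of calls over all IDs was less steady. It was 117 without E09 B1, which has 8 cells, 266 without E13 B2 and 953 without E15 B1. With the number of IDs detected at equal depth as a covariate, added after seeing the data, it was 223, of which 90 were higher and 133 lower. Without E15 B2 and E15 B3 it was 364, of which 122 were higher and 242 lower.

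Some counts were spread thinly over all cells of a collection. In E11 B2, 3 IDs at 50 CPM or more had at least 90% of their counts in 1 cell, and 2 of the 3 still had a count in each of the 57 cells. In E09 B1, which has 8 cells, this held for 54 of 85 such IDs, and in E09 B2 for 0 of 1. In E13 B1, E13 B2 and E15 B2 it held for 0 of 9, 0 of 1 and 0 of 4, and in E15 B3 for 8 of 300. The early cells were also deeper, as given above, and the part of this spread in the shares was not tested. A sum per collection does not depend on which of its cells holds a count. When a cell had to reach 50 CPM to be positive, a choice made after seeing the data, 174 IDs were called, 55 higher and 119 lower, with 148 of the 512 among them. At that level ENSMFAG00000042181 was positive in 70 of 93 early cells and 0 of 215 later ones, and ENSMFAG00000032168 in 19 of 93 and 155 of 215.

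The level within positive cells was compared for the 3050 IDs with at least 3 positive cells in every collection. Of these, 6 (0.197%) differed in limma on the mean log2(CPM + 1), 5 lower (0.164%) and 1 higher (0.0328%). An unadjusted p under 0.05 was reached by 255 (8.36%). The periods did not overlap for 147 of the 3050 (4.82%) that were higher and 52 (1.70%) that were lower. The median difference over all 3050 was 0.23 on the log2 scale. Of the 18 IDs lower on sums, 5 could be tested this way and 1 was called. The 6 calls became 1 without E09 B1, 3 without E15 B2, 11 without E15 B3, 13 without both E15 B2 and E15 B3, and 0 without E09 B2, where 170 IDs had an unadjusted p under 0.05 in limma.

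ENSMFAG00000000818 was in nearly all cells of both periods and rose in level. Its mean log2(CPM + 1) in positive cells was 8.44, 7.09 and 6.70 in E09 B1, E09 B2 and E11 B2. It was 10.53, 10.69, 9.54, 11.40 and 10.71 in E13 B1, E13 B2, E15 B1, E15 B2 and E15 B3. The difference was 3.17 ± 0.53 (SE; limma adjusted p = 0.00544), and positive cells were 86 of 93 early and 214 of 215 later. The call was lost without E09 B2 (limma adjusted p = 0.0824) or E11 B2 (0.0608).

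ENSMFAG00000045820 had the same order without passing. Its level was 4.11, 5.13 and 5.82 early and 6.76, 7.60, 7.11, 8.10 and 6.86 later, a difference of 2.26 ± 0.51 (limma adjusted p = 0.0681, and 0.0486 without E15 B3).

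ENSMFAG00000043744 fell both in level and in share. Its level in positive cells was 9.37, 7.88 and 7.05 early and 4.41, 3.34, 4.86, 5.61 and 4.67 later, with no overlap. The difference was -3.53 ± 0.57 (limma adjusted p = 0.00544), and its mean share went from 79.4% ± 18.0 to 21.9% ± 13.4 of cells (limma adjusted p = 0.000200). The call on level was lost without E09 B1 (limma adjusted p = 0.211) or E09 B2 (0.0779).

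ENSMFAG00000040972 fell in level while it stayed detected in most cells. It was positive in 93 of 93 early and 198 of 215 later cells. Its level was 13.45, 10.74 and 10.40 early and 9.93, 7.58, 8.73, 6.04 and 7.42 later. The difference was -3.59 ± 0.72 (limma adjusted p = 0.0235), and the call was lost without E09 B1 (limma adjusted p = 0.696), E09 B2 (0.0824), E13 B2 (0.0624), E15 B2 (0.133) or both E15 B2 and E15 B3 (0.0866).

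**Figure D4:**
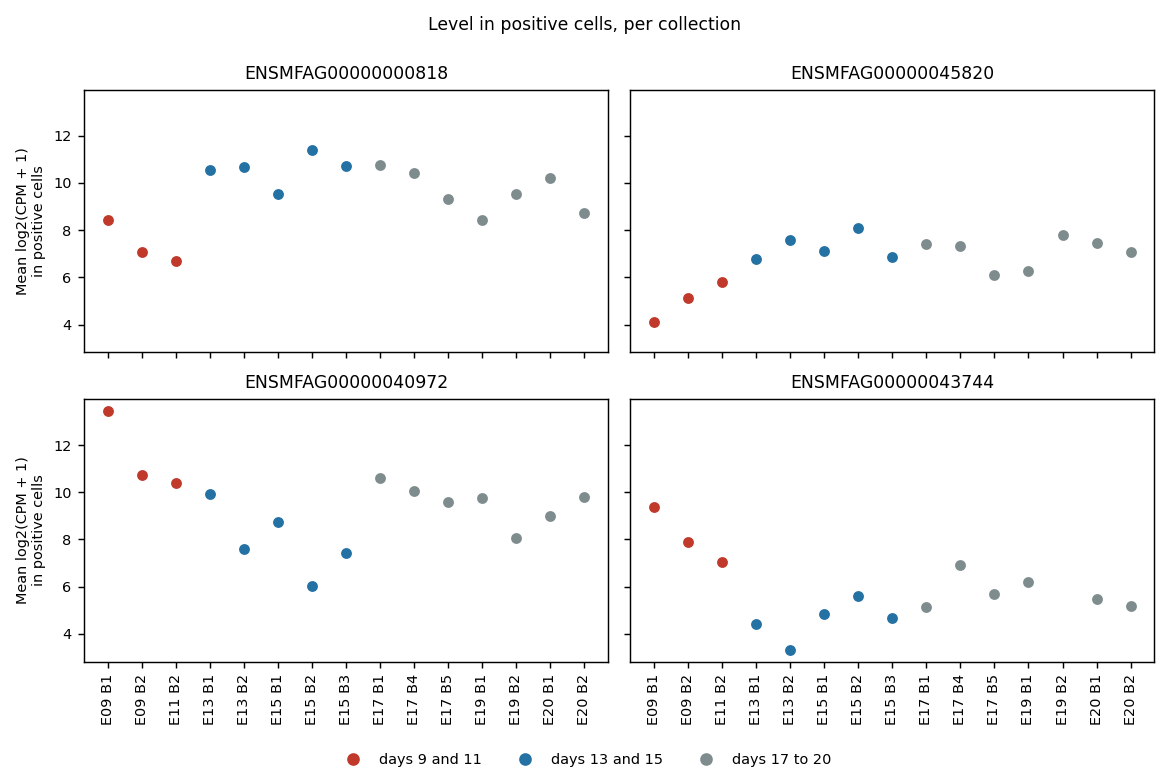
Mean log2(CPM + 1) over positive cells for 4 IDs, 1 point per collection, coloured by period. The axis does not start at 0, and a collection without a positive cell has no point. The upper IDs are higher and the lower IDs lower at days 13 and 15 than in each early collection.

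Neighbouring days were then compared in 1 fit with the day as a factor, over 17449 IDs. Between days 9 and 11, 9 IDs (0.0516%) were called by edgeR, all higher at day 11, and 486 (2.79%) had an unadjusted p under 0.05. Between days 11 and 13, 9 IDs (0.0516%) were called, all lower at day 13, and 318 (1.82%) had an unadjusted p under 0.05. Between days 13 and 15, edgeR called 0 (0.00%), with 219 (1.26%) at an unadjusted p under 0.05, while DESeq2 called 179. Day 11 has 1 collection, E11 B2, which enters both of the first 2 comparisons, and its spread is taken from the other days, so what is particular to day 11 and what is particular to this collection cannot be told apart. Without E13 B1 or without E13 B2, edgeR called 1 ID between days 9 and 11 and 0 between days 11 and 13, where 227 and 339 had an unadjusted p under 0.05. Without E15 B3 it called 88, 73 and 9 in the 3 comparisons, and without E15 B2 48, 48 and 2. Without E09 B2 it called 74 and 23 in the first 2, without E09 B1 18 between days 11 and 13, and without E15 B1 25 between days 11 and 13 and 5 between days 13 and 15.

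ENSMFAG00000031396 and ENSMFAG00000042244 were high in E11 B2, low or absent in the other 7 collections up to day 15, and high again in some collections of days 17 to 20. ENSMFAG00000031396 had 0 counts in both day 9 collections and 931 CPM in E11 B2, at least 47181-fold higher against 3 counts over day 9 (edgeR adjusted p = 0.0149). At days 13 and 15 its highest level was 0.233 CPM, in E15 B1. A single cell held 62.1% of its counts in E11 B2, yet all 57 cells had some, with a median of 2.71 CPM and a highest value of 21602 CPM. ENSMFAG00000042244 likewise had 0 counts at day 9 and 551 CPM in E11 B2, at least 27897-fold higher (edgeR adjusted p = 0.0149). There a single cell held 55.0% of its counts, and all 57 cells had some, with a median of 6.57 CPM and a highest value of 11305 CPM. After day 11 its highest level up to day 15 was 0.173 CPM, in E15 B3. Later ENSMFAG00000031396 reached 9760 CPM in E17 B4 and 2692 CPM in E20 B2, and ENSMFAG00000042244 3125 CPM in E19 B1 and 1638 CPM in E20 B2. Both calls were lost without E13 B1 (edgeR adjusted p = 0.103 and 0.0847) and without E13 B2 (0.170 for both).

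Lower at day 11 than at day 9 without passing were ENSMFAG00000003156, described above (edgeR adjusted p = 0.335), and ENSMFAG00000033032. The latter stood at 538 and 238 CPM at day 9, 10.3 CPM at day 11 and 16.2 to 57.2 CPM at days 13 and 15 (edgeR adjusted p = 0.363).

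Between days 11 and 13 ENSMFAG00000041983 went from 1160 CPM to 0 counts in both collections, at least 79107-fold lower against 3 counts over day 13 (edgeR adjusted p = 0.00147). ENSMFAG00000044033 went from 993 CPM to 0 counts, at least 67734-fold lower (edgeR adjusted p = 0.0493), although 1 cell of E11 B2 held 96.6% of its day 11 counts. It was at 146 and 618 CPM at day 9, and in E15 B1 at 0.890 CPM. Without E13 B1 and without E13 B2 the calls of ENSMFAG00000041983 (edgeR adjusted p = 0.110 and 0.320) and ENSMFAG00000044033 (0.821 and 1) were lost. Higher at day 13 without passing were ENSMFAG00000000205 (edgeR adjusted p = 0.0742) and ENSMFAG00000041244 (0.180). The latter had 0.113 CPM in E11 B2 and 76.4 and 336 CPM at day 13, but was at 15.9 CPM in E09 B1.

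Between days 13 and 15 the IDs with the smallest p did not pass in edgeR (adjusted p = 1 for each). ENSMFAG00000038840 had 0 counts in both day 13 collections and 0.261, 12.4 and 12.7 CPM in E15 B1, E15 B2 and E15 B3, where 1 cell held all of its counts in E15 B2 and in E15 B3. ENSMFAG00000034666 had 1.17 and 0.405 CPM at day 13 and 5.66, 134 and 6.08 CPM at day 15. Lower at day 15 were ENSMFAG00000004586, with 463 and 156 CPM against 91.5, 53.4 and 34.7, and ENSMFAG00000044082, with 91.5 and 60.1 CPM against 11.5, 9.03 and 2.42.

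The median early cell had most of the 18 IDs lower on sums. This describes the values that chose them and is no further test. Over the 18, the median of the mean early share was 70.2% of cells, so many per cell would be seen without any tie between IDs. Whether they tend to share cells was not tested. An early cell had a median of 12 of the 18 in E09 B1, 11 in E09 B2 and 11 in E11 B2. A later cell had a median of 4 in E13 B1, 2 in E13 B2, 3 in E15 B1, 2.5 in E15 B2 and 2 in E15 B3. At least 9 of the 18 were found in 100% of the cells of E09 B1, 64.3% of E09 B2 and 70.2% of E11 B2, and in 0 cells of days 13 and 15. A single count was enough here, and the part of the thinly spread counts described above in these numbers was not tested. The 3 higher IDs were not found in any early cell at 100000 counts, and at least 1 of them was in 33.3% to 77.3% of the cells of each later collection.

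**Figure D5:**
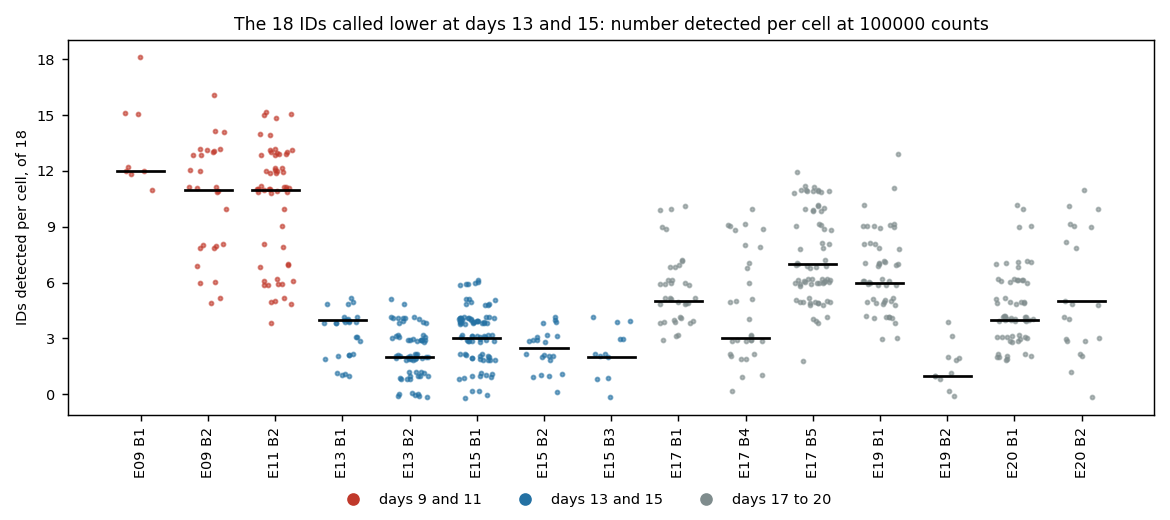
Number of the 18 IDs lower on sums that were detected in each cell at 100000 counts, by collection and coloured by period. Each point is 1 cell, shifted slightly at random in both directions so that points can be told apart, and the bar is the median. Early medians are 11 or 12, those of days 13 and 15 are 2 to 4, and those of days 17 to 20 are 1 to 7.

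At days 17 to 20, which entered no fit, many of the 18 IDs were present again. All 18 had counts in at least 1 of these 7 collections and 14 reached 10 CPM in at least 1, against 6 that did so at days 13 and 15. The 18 were chosen as low at days 13 and 15, and the 7 collections outnumber those of that period. These counts are therefore a description, and the share of all tested IDs that reached 10 CPM is not given here. The median level over the 18 was 545, 150 and 204 CPM in the early collections, at most 0.170 CPM in those of days 13 and 15, and 16.6, 67.8, 64.4, 76.7, 0.177, 7.50 and 42.5 CPM in E17 B1, E17 B4, E17 B5, E19 B1, E19 B2, E20 B1 and E20 B2. Over all 13953 IDs tested the median level stayed between 6.15 and 13.3 CPM in all 15 collections. A cell had a median of 1 of the 18 in E19 B2 and 7 in E17 B5, and at least 9 were found in 33.8% of the cells of E17 B5. ENSMFAG00000041983 stood at 25.8, 664, 242, 588, 0, 4.08 and 157 CPM in the same order of collections, with 3 of 63 cells positive in E20 B1. In E17 B4 a single cell held 63.9% of its counts and the median cell was at 0.743 CPM. E19 B2, where it had 0 counts, has 11 cells. ENSMFAG00000042181 was positive in 41 of 51 cells of E19 B1, 49 of 71 of E17 B5 and 1 of 11 of E19 B2.

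The larger set of 394 IDs whose share of positive cells fell was followed by share, not by level, so it cannot be set against the 18. Over the 394, the median of the mean share was 54.3% early, 10.8% at days 13 and 15 and 19.4% at days 17 to 20. Of the 394, 32 (8.12%) had a mean share at days 17 to 20 nearer to that of days 9 and 11. Over all 10991 tested this held for 3542 (32.2%). The 394 were chosen for a gap between the periods, with a median difference of -39.3 percentage points, against -5.68 over all tested. The 2 percentages therefore cannot be compared directly. Over the 118 that rose, the median of the mean share was 34.9% at days 17 to 20, and 22 (18.6%) were nearer to the early period. ENSMFAG00000032168 stayed in 90% or more of the cells in 6 of the 7 collections of days 17 to 20 and was in 2 of 11 cells of E19 B2. ENSMFAG00000032675 ranged there from 9 of 21 cells in E20 B2 to 37 of 37 in E17 B1.

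Among IDs singled out earlier in these data, ENSMFAG00000001837 was positive in 7 of 8, 20 of 28 and 17 of 57 early cells and in 10 of 28, 3 of 66, 3 of 87, 2 of 22 and 0 of 12 later cells (limma adjusted p on the share = 0.000146). The collections overlapped, E13 B1 being above E11 B2, with an exact permutation p of 0.0714, and its sums did not pass (edgeR adjusted p = 0.694). Nearly all early cells with it, 7 of 7, 19 of 20 and 17 of 17, also had ENSMFAG00000042181. That ID was positive in 8 of 8, 27 of 28 and 51 of 57 of all early cells, so the overlap is given as a description. ENSMFAG00000033907 was at 0, 8.97 and 18.7 CPM early and at 30.4 to 114 CPM later without passing (edgeR adjusted p = 0.670), and ENSMFAG00000038308 did not pass either (0.888). ENSMFAG00000000004, the ID that dominates many cells, did not differ detectably (median of 8.50% ± 1.59 of a cell's counts early and 9.26% ± 4.49 later, exact permutation p = 0.821).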

How the data were processed

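The authors deposited estimated counts per gene ID for 600 single cells. The tools were STAR 2.3.4 and RSEM, per the submitters' processing notes. The build is not given in the sources used here, nor is the annotation. Of all deposited values 2.23% were not whole (tolerance 1e-06), and all were rounded before the count tests. Reads carried no molecular identifiers in this protocol, so 1 molecule can give many counts. Intervals, folds given as at least a value, and shares allowed by 0 positive cells are for counting error alone. Counts of kept cells were summed per collection and tested with edgeR 4.0.16 in R 4.3.3 (quasi-likelihood test with a threshold of 0.05 on the Benjamini-Hochberg adjusted p, TMM scaling, low IDs removed by filterByExpr). Shares of positive cells (seed 1, 0.5 added to both numbers before the logit) and levels in positive cells (pseudocount 1) were tested with limma 3.58.1. For the shares limma took the spread of each ID from a trend with the mean logit, fitted over all IDs tested. It found no difference in spread around that trend beyond sampling, which makes small adjusted p-values possible with 8 collections. Exact permutation tests used scipy 1.17.1. DESeq2 1.42.0 was an alternative.

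The IDs named per comparison are those called with a change of 1 or more on the log2 scale (25 percentage points for shares) and a mean log2 CPM of 5 or more (not for shares), taking the 2 largest changes in each direction. Where fewer passed, IDs of the smallest p whose collections did not overlap were added and given as not passing. The collections compared, the rules and the IDs singled out earlier were chosen with earlier results of these data known. Cells positive for both of 2 IDs, and the sets at days 17 to 20, were looked at after the tests. No doublet caller was run, since cells had been picked singly by hand.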

Additional observations from a re-analysis of the deposited data

Results flagged for a closer look

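In the 5 collections of days 13 and 15, a single collection stood apart from the other 4 for 7 of the IDs named. Chance sets 1 collection apart in about 1 in 20 such groups, and many of these groups hold mostly 0 counts, where any count stands apart. ENSMFAG00000041983 was at 0.0863 CPM in E15 B3, ENSMFAG00000003156 at 0.00663 CPM in E13 B2, ENSMFAG00000031396 at 0.233 CPM in E15 B1, ENSMFAG00000042244 at 0.173 CPM in E15 B3 and ENSMFAG00000044033 at 0.890 CPM in E15 B1, with the other 4 collections lower in each case. ENSMFAG00000034666 was at 134 CPM in E15 B2, against 0.405 to 6.08 CPM in the other 4. ENSMFAG00000004586 was at 462.5 CPM in E13 B1, against 34.7 to 156 CPM in the other 4. None of these values was left out of a fit.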

How the results depend on the processing

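The count of IDs called on sums (21) was 642 in DESeq2, 301 in limma over cells, 38 without a filter on low counts, 74 with thinned cells, 11 with collections of at least 10 cells, 9 without the collection with dots in its titles, 2 with depth and 3 with the day as a number. It was 5 in cells without ENSMFAG00000001837, where E09 B1 kept 1 cell. With choices made after seeing the data it was 11 (IDs detected at equal depth as a covariate) and 7 (without E15 B2 and E15 B3). It was 20 with RLE factors, 19 with total counts and 22 in cells with 4000 IDs. It was 25 without dominated cells, those with over 25% of their counts from ENSMFAG00000000004. Leaving out 1 collection gave 9 to 64. The count on the share of positive cells (512) was 670 without thinning, 511 at 10 CPM and 433 at 2 counts, and with choices made after seeing the data 174 at 50 CPM, 223 with the covariate of detected IDs and 364 without E15 B2 and E15 B3. Leaving out 1 collection gave 117 to 953. The count on levels (6) was 3 with at least 5 positive cells, 6 with pseudocounts of 0.1 and 10, 13 without E15 B2 and E15 B3 (chosen after seeing the data) and 0 to 11 without 1 collection. For day 11 against 9 (9), day 13 against 11 (9) and day 15 against 13 (0), the counts were 56, 49 and 1 without a filter, 379, 320 and 179 in DESeq2, and 1 to 88, 0 to 73 and 0 to 9 without 1 collection. E11 B2 was not left out there, since day 11 would have no collection. The cause of these shifts was not tested.

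The labels do not say whether B numbers pair collections of different days. The deviations of same-numbered collections from their period's mean correlated at -0.0821 to 0.0939 over 6 pairs, with 0 over 0.1. Pairs with different numbers ran from -0.0665 (E11 B2 with E13 B1) to 0.134 (E09 B2 with E15 B1). Whether same-numbered collections share a source was not tested. With the B number as a replicate block, 16 IDs were called on sums and 648 on the share of positive cells.

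The difference of mean log10 total count between the periods (-0.502) was -0.354 in cells with 4000 IDs (exact permutation p = 0.0714), -0.429 without E15 B2 and E15 B3 (exact permutation p = 0.100, the smallest that 3 against 3 can give) and -0.645 to -0.396 without 1 collection, where too few collections are left to reach 0.05 in an exact test. The median percent of counts from ENSMFAG00000000004 (0.759 percentage points higher later) changed sign to -0.944 in cells with 4000 IDs, -1.59 without E15 B2 and E15 B3, and -0.347 without E15 B2, and was 2.32 at the other end of the range without 1 collection. For the 24 single results on IDs, 319 values under other settings were computed: 263 kept their direction and side of the threshold, 24 lost and 32 gained the call, and 0 changed direction.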
